A study of Mus musculus with 19 samples.

Results

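Wfs1, Fibcd1, Pou3f1 and Mpped1 are 4 genes that mark the pyramidal neurons of hippocampal area CA1, and their levels were followed here in dissected CA1 tissue of young and aged mice. They were chosen by name, as CA1 identity genes, and all 4 were found among the 48709 genes of the count files. All 4 had enough reads to be among the 19286 genes that were tested. The data are RNA-seq libraries of CA1, microdissected from male wild-type mice, with 19 labelled samples and 1 library for each, in a study that asked whether inhibition of 3 microRNAs alters hippocampal gene expression in old age. The 6 young libraries came from mice of 3 months, and the 6 old control and 7 old anti-miR-mix libraries from mice of 16.5 months. All 3 groups received lipid nanoparticles into the dorsal hippocampus, which by the study's methods carried scrambled control oligonucleotides in the young and old control mice and inhibitors of the microRNAs miR-146a-5p and miR-148a-3p as well as miR-181a-5p in the old anti-miR-mix mice. Because the name of the mix also opens the titles of young and old control samples, the groups were taken from the sample descriptions. There was no group of untreated mice and no young group that received the mix, hence an effect of the injection itself is shared by all groups.

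The pyramidal neurons of CA1 form the main output of the hippocampus and receive their input from CA3 and from the entorhinal cortex. Neurons of CA1, CA2, CA3 and the dentate gyrus are told apart by sets of genes that stay on in adult life, and the members are read as CA1 markers because their transcripts are dense in the CA1 cell layer and sparse in CA3 and in the dentate gyrus. The 4 genes are unlike in function. Pou3f1 encodes a POU domain transcription factor, also called Oct-6. Fibcd1 encodes a transmembrane receptor with a fibrinogen-like domain that binds acetylated sugars. Wfs1 encodes wolframin, a membrane protein of the endoplasmic reticulum that is mutated in Wolfram syndrome. Mpped1 encodes a protein with a metallophosphoesterase domain whose role in neurons is little known.

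MicroRNAs pair through bases 2 to 8, the seed, with matching sites in the 3′ untranslated regions (3′UTRs) of their targets, so the 3 seeds of the mix were searched in the members. The mature microRNAs are printed with the seed in capitals, as RefSeq gives them on GRCm38.p6.
miR-146a-5p: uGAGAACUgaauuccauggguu
miR-148a-3p: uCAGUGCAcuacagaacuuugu
miR-181a-5p: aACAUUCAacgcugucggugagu
The matching 7 bases on the sense strand of the longest annotated 3′UTR (GENCODE M21) are AGTTCTC for miR-146a-5p, TGCACTG for miR-148a-3p and TGAATGT for miR-181a-5p. No match to any of the 3 was present in the 3′UTR of Wfs1 (769 bases), Fibcd1 (3148 bases) or Pou3f1 (1599 bases). The Mpped1 3′UTR (2391 bases) held 1 match to the miR-146a-5p seed, at bases 1736 to 1742, and 1 match to the miR-148a-3p seed, at bases 195 to 201. Both are shown with the match in capitals and 10 bases on either side.
Mpped1, miR-146a-5p match: tcaccactggAGTTCTCtccctgcaaa
Mpped1, miR-148a-3p match: cgcgtcggtgTGCACTGtgaactatca
Among the 15387 tested genes with an annotated 3′UTR, 13.4% held the miR-146a-5p match, 16.3% the miR-148a-3p match and 18.8% the miR-181a-5p match, and the median 3′UTR was 1330 bases long. A match of 7 letters is a description of the sequence, not evidence of binding.

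On the GRCm38 annotation the members lie on 4 chromosomes and are all protein-coding. Wfs1 (ENSMUSG00000039474) lies at chr5:36966104-36989205 on the minus strand, with 8 separate exon blocks. Fibcd1 (ENSMUSG00000026841) lies at chr2:31813290-31846005 on the minus strand, with 7. Pou3f1 (ENSMUSG00000090125) lies at chr4:124656807-124660655 on the plus strand and has 1 exon block, and Mpped1 (ENSMUSG00000041708) lies at chr15:83779467-83858494 on the plus strand, with 11. The antisense transcript Gm2164 shares 330 exonic bases with Pou3f1. Because the counting is not stated to use strand, it is not known how reads over the shared bases were assigned, or whether they were left out. Gm2164 was assigned 73 to 129 reads per library, and Pou3f1 1798 to 3878. No other annotated gene shared exonic bases with a member.

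Library depth ran from 26653511 to 38908947 assigned reads. A deposited table of log2 values had been adjusted, gene by gene, for a whole number from 1 to 4 that each library carries. These numbers are not described in the sources used here and are called processing groups, treated as a possible technical batch. They hold 4, 5, 5 and 5 libraries, and processing group 3 contains no old control library. Old control replicates 5 and 6 were unusually alike: their counts differed by 1.89 times the variance expected from sampling alone, against 4.82 to 26.7 times in the other 50 pairs of libraries within a group. The labels do not tell whether both came from 1 animal, which would leave 5 in that group. They were kept as 2 libraries. The main comparisons and the correlations over all libraries were repeated with the pair as 1, but not the correlations within single groups. The labels do not state separate litters or days, so p-values measure the spread between these libraries.

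To place the members in the transcriptome, their levels were first compared per transcript length, as RPKM (reads scaled to library size and to exon length). Mpped1 was the most abundant, with 85.1 ± 3.97 RPKM in young, 92.0 ± 7.46 in old control and 84.0 ± 7.20 in old anti-miR-mix mice (mean ± SD, n = 6, 6 and 7 here and below). Wfs1 followed with 64.6 ± 12.6, 57.7 ± 7.42 and 50.5 ± 4.95 RPKM. Fibcd1 had 29.9 ± 11.9, 39.2 ± 6.47 and 34.1 ± 13.5 RPKM, and Pou3f1, the transcription factor, was lowest with 19.4 ± 2.62, 21.7 ± 3.18 and 20.6 ± 4.57 RPKM. The order Mpped1, Wfs1, Fibcd1, Pou3f1 held in 16 of the 19 libraries. Wfs1 and Fibcd1 changed places in 2 libraries, Mpped1 and Wfs1 changed places in 1, and Pou3f1 was lowest in all 19. The RPKM ranges of Mpped1 and Wfs1 met in the young group alone. Those of Wfs1 and Fibcd1, and those of Fibcd1 and Pou3f1, overlapped in the young and in the old anti-miR-mix groups but not in the old control group.

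Below, levels are log2 CPM (counts scaled to library size, with a prior count of 2) and differences are log2 fold changes of edgeR's quasi-likelihood test, with p-values adjusted by Benjamini-Hochberg over all 19286 tested genes and a threshold of 0.05. The first comparison asks whether the CA1 identity genes differ with age between mice that both received control oligonucleotides. Pou3f1 ranged from 6.01 to 6.49 (median 6.17) in young and from 6.11 to 6.67 (median 6.42) in old control mice. The spans largely coincided, and the log2 fold change of 0.16 (SE 0.13, 95% interval -0.10 to 0.43, adjusted p = 0.532 in edgeR) did not pass. Fibcd1 ranged from 6.34 to 7.93 (median 7.06) in young and from 7.12 to 7.78 (median 7.57) in old control mice. Young replicate 2 stood above every old control library, and the other 5 young libraries reached at most 7.29. The log2 fold change was 0.39 (SE 0.25, interval -0.13 to 0.91, adjusted p = 0.439 in edgeR).

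Wfs1 ranged from 7.59 to 8.32 (median 7.87) in young and from 7.55 to 8.03 (median 7.71) in old control mice. Young replicates 3 and 4 lay above all old control libraries, but the other 4 lay among them, and the difference of -0.16 (SE 0.10, interval -0.38 to 0.05, adjusted p = 0.439 in edgeR) did not pass. Mpped1 was the steadiest of the members, with 8.40 to 8.61 (median 8.51) in young and 8.48 to 8.75 (median 8.63) in old control mice. Its log2 fold change of 0.11 (SE 0.06, interval -0.01 to 0.24, adjusted p = 0.319 in edgeR) did not pass. Thus 0 of the 4 members passed the threshold between old control and young mice, against 2.67% of all tested genes (514 genes), with DESeq2 and with limma on the deposited values also giving 0 calls. At an unadjusted p under 0.05 there were 0 of 4 members in edgeR and 18.1% of all genes. With 1 library left out at a time the Fibcd1 value ran from 0.27 to 0.61, the highest without young replicate 2, that of Wfs1 came to -0.07 without young replicate 3 and that of Pou3f1 to 0.10 without old control replicate 2, and none passed. The 2 groups overlapped for all 4 members, whereas they did not overlap for 2.54% of all genes. The intervals bound these differences only loosely for Fibcd1, which could be up to 1.88-fold higher in old control mice, and closely for Mpped1, at most 1.18-fold higher.

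**Figure D1:**
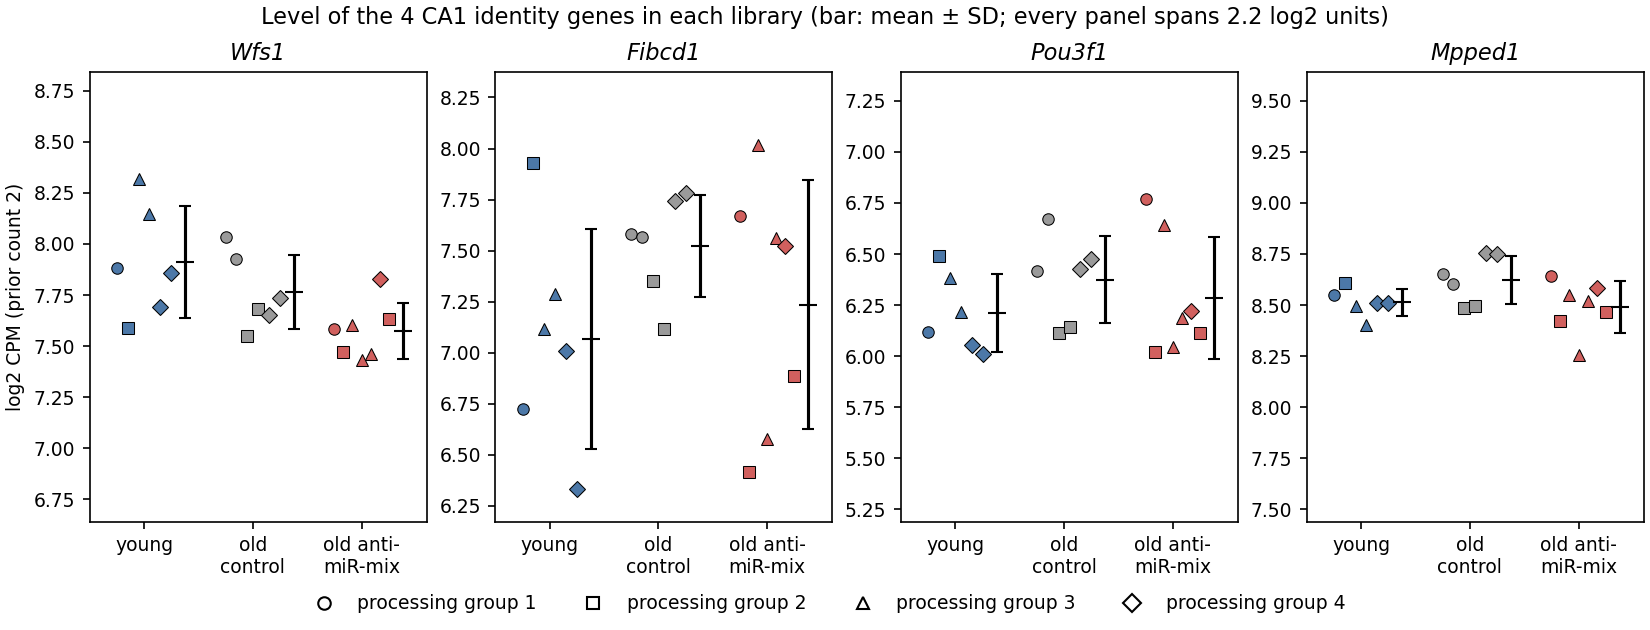
Level of Wfs1, Fibcd1, Pou3f1 and Mpped1 in each library (log2 CPM, y axis) by group (x axis), with the marker shape giving the processing group and the bar at the right of each group its mean ± SD. All panels span the same number of log2 units, so the wide scatter of Fibcd1 (6.34 to 8.02) and the narrow band of Mpped1 (8.25 to 8.75) can be compared directly.

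The second comparison asks whether the anti-miR-mix altered these genes in old mice. In old anti-miR-mix mice Pou3f1 ranged from 6.02 to 6.77 (median 6.19), and replicates 1 and 3, at 6.77 and 6.64, stood above the other 5. Against old control mice its log2 fold change was -0.07 (SE 0.12, interval -0.32 to 0.18, adjusted p = 0.888 in edgeR). Fibcd1 ranged from 6.42 to 8.02 (median 7.52). Replicates 2, 4 and 7, at 6.42, 6.58 and 6.88, were below every old control library, while replicate 3 was above them all. The log2 fold change of -0.20 (SE 0.24, interval -0.70 to 0.30, adjusted p = 0.840 in edgeR) was accordingly within the spread.

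Wfs1 ranged from 7.43 to 7.83 (median 7.59) in old anti-miR-mix mice. Replicates 2, 4 and 5 lay below the lowest old control library, and the log2 fold change was -0.19 (SE 0.10, interval -0.40 to 0.02, adjusted p = 0.522 in edgeR). Mpped1, the member with seed matches, ranged from 8.25 to 8.64 (median 8.52), with replicates 2, 4 and 7 below every old control library. Its log2 fold change was -0.13 (SE 0.06, interval -0.25 to -0.01), with an unadjusted p of 0.0305 that became an adjusted p of 0.407 in edgeR. None of the 4 members passed the threshold between the 2 old groups with edgeR, DESeq2 or limma, against 0.669% of all tested genes (129 genes), and 1 of 4 had an unadjusted p under 0.05 in edgeR, as did 10.5% of all genes. The old groups overlapped for all 4 members, and they did not overlap for 0.498% of all genes. With 1 library left out at a time Fibcd1 ran from -0.35 without old anti-miR-mix replicate 3 to -0.09 without replicate 2 and -0.10 without replicate 4, and Pou3f1 from -0.16 without old anti-miR-mix replicate 1 to -0.01 without old control replicate 2, and none passed. On the linear scale the interval for Mpped1 ran from 0.841-fold to 0.991-fold of the old control level.

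The third comparison sets the old anti-miR-mix mice against young mice, and it shares its libraries with the first 2 comparisons. Its groups differ both in age and in the oligonucleotides received, and the effects of these cannot be told apart here. Wfs1 was lower in the old anti-miR-mix mice and was the 1 member past the threshold, against 6.2% of all tested genes (1196 genes). The group mean was 7.91 ± 0.27 in young and 7.57 ± 0.14 in old anti-miR-mix mice, a log2 fold change of -0.36 (SE 0.10, interval -0.57 to -0.15, adjusted p = 0.0366 in edgeR), or 0.781-fold (0.675 to 0.903). The groups overlapped all the same, since young replicate 2 at 7.59 was as low as the median of the treated mice and old anti-miR-mix replicate 6 reached 7.83, and over all genes 2.42% did not overlap. The other 3 members had log2 fold changes of 0.19 for Fibcd1 (interval -0.31 to 0.69), 0.09 for Pou3f1 (-0.16 to 0.34) and -0.02 for Mpped1 (-0.14 to 0.10), and their adjusted p-values were 0.738, 0.751 and 0.904 in edgeR. The Fibcd1 value ran from 0.04 without old anti-miR-mix replicate 3 to 0.41 without young replicate 2, and it did not pass with any library left out.

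**Figure D2:**
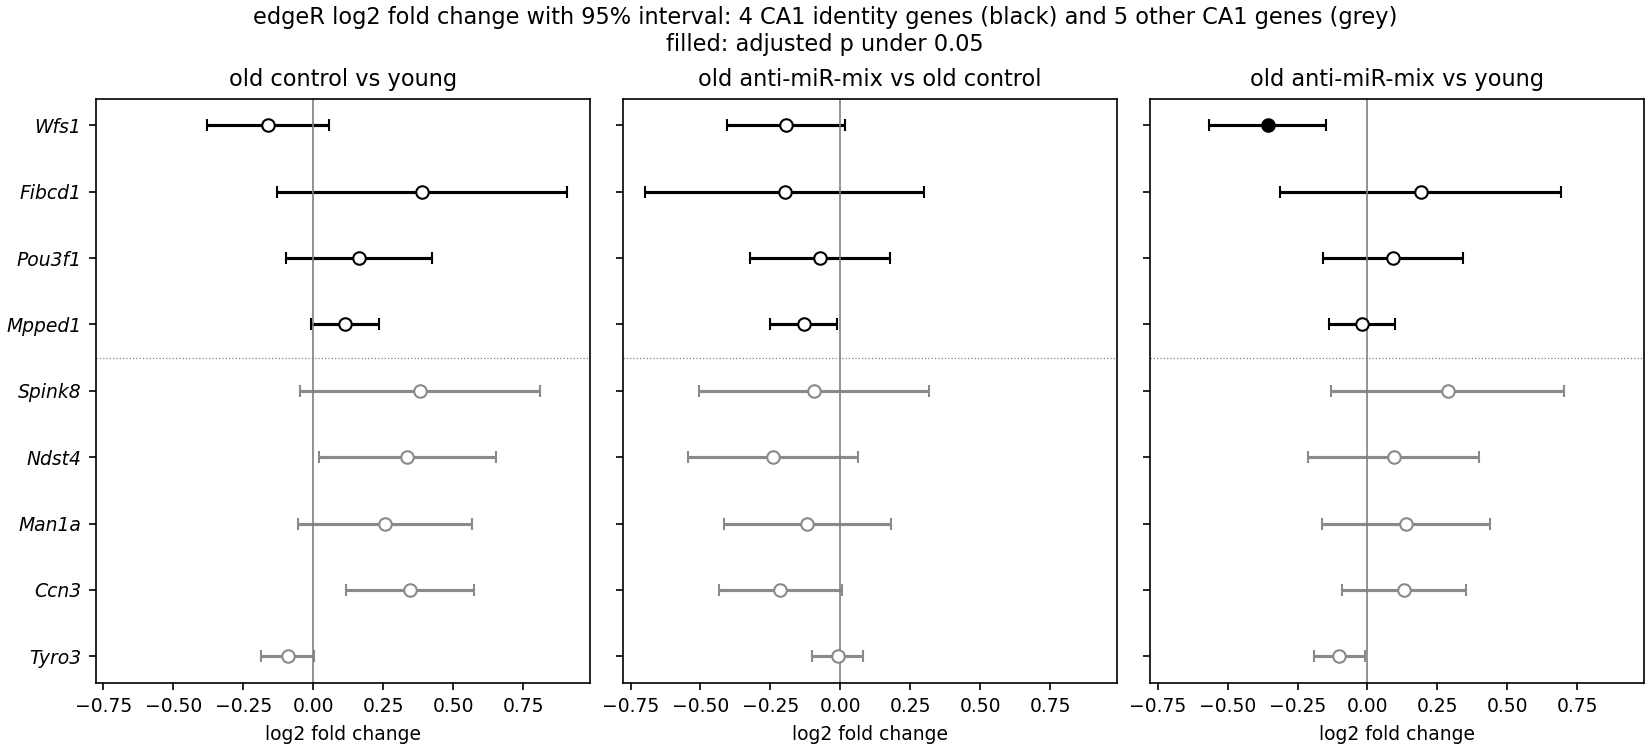
Log2 fold change (x axis) with its 95% interval for the 4 members (black) and for 5 other CA1 genes (grey) in the 3 comparisons, from edgeR, with filled circles for an adjusted p under 0.05. Wfs1 in old anti-miR-mix against young mice, at -0.36, is the single filled circle, and Fibcd1 has the widest interval of the members in each panel.

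The Wfs1 call depended on single libraries. Within processing groups 1, 2, 3 and 4 the difference between old anti-miR-mix and young mice was -0.29, -0.04, -0.73 and 0.05, and the young libraries of processing group 3, replicates 3 and 4, were the 2 highest Wfs1 values of all 19. With processing group as a factor the log2 fold change was -0.34 and stayed past the threshold. It kept its negative sign in 29 of 29 alternative settings and passed the threshold in 16 of them, 6 of 10 that kept every library and 10 of 19 that left 1 out. Without young replicate 3 it was -0.27 (adjusted p = 0.103 in edgeR), without young replicate 4 it was -0.31 (adjusted p = 0.0968 in edgeR), and leaving out any 1 of 7 other young or old anti-miR-mix libraries also took the adjusted p to 0.05 or above. The call was lost as well with limma on the deposited values (adjusted p = 0.0529), after scaling to pan-pyramidal genes (adjusted p = 0.0981 in edgeR) and, in a setting chosen after seeing the data, with the processing group factor and old control replicates 5 and 6 taken as 1 library (adjusted p = 0.0524 in edgeR).

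**Figure D3:**
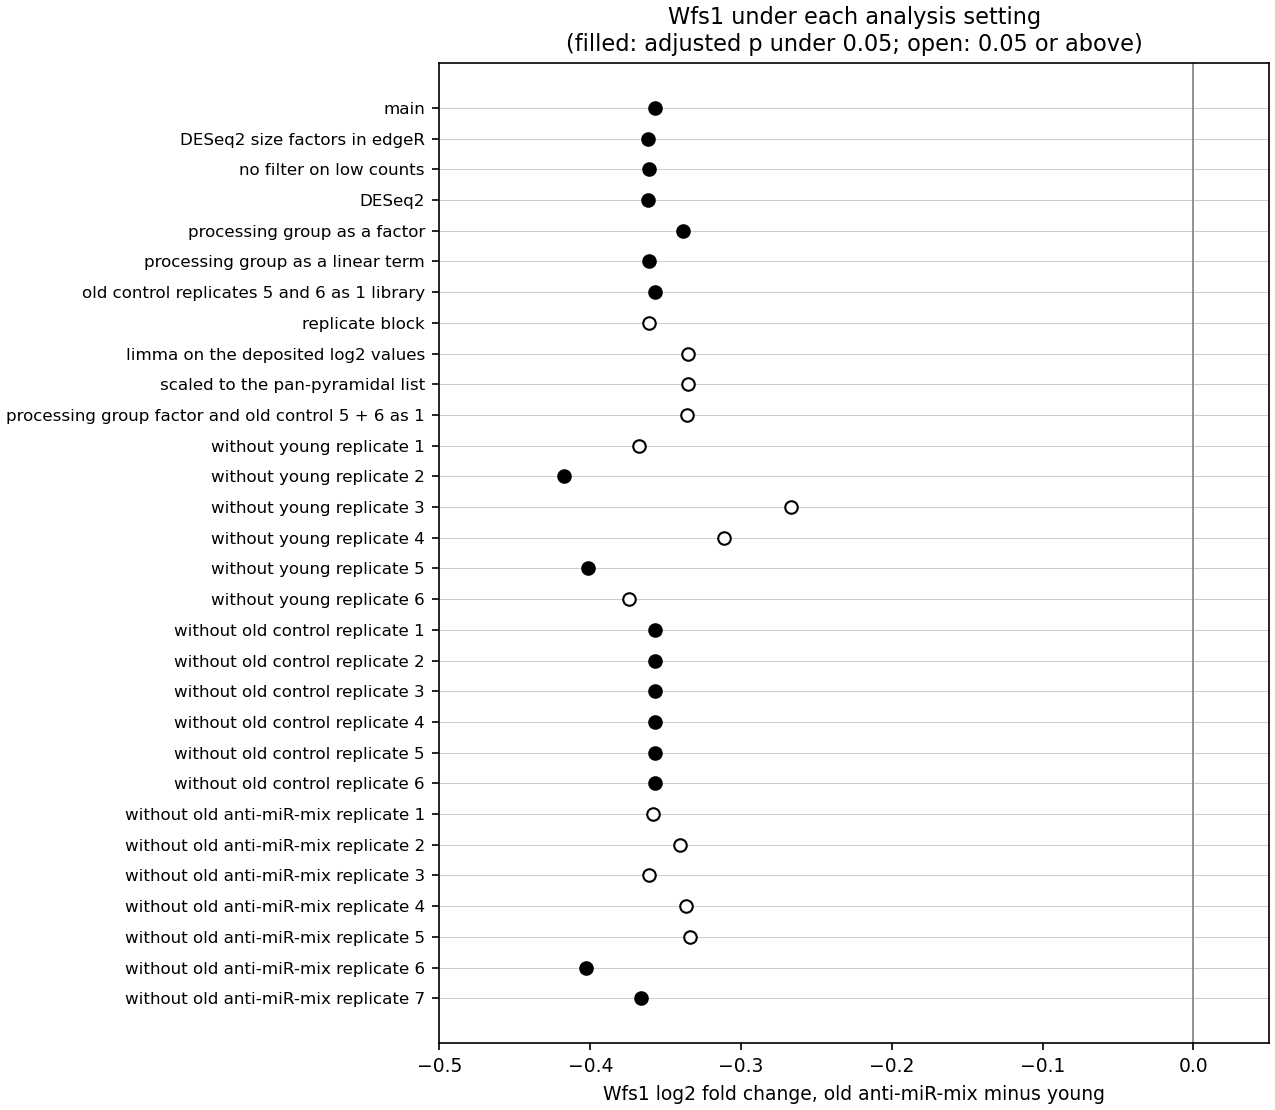
Wfs1 log2 fold change, old anti-miR-mix minus young (x axis), under the main setting and each of 29 alternatives (y axis), filled where the adjusted p was under 0.05. All values lie between -0.42 and -0.27, and the call is lost when single young or treated libraries are removed, most clearly young replicate 3.

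The members differed in how much they varied between mice of the same group. The pooled SD within groups was 0.50 for Fibcd1, 0.24 for Pou3f1, 0.20 for Wfs1 and 0.11 for Mpped1, on the log2 CPM scale. Of the 1287 genes within 0.5 log2 units of the Fibcd1 level, 0.155% had a larger SD, and their median SD was 0.077. The share with a larger SD was 2.24% for Pou3f1, 4.69% for Wfs1 and 26.2% for Mpped1. The highest and the lowest library were 3.21-fold apart for Fibcd1, 1.85-fold for Wfs1, 1.69-fold for Pou3f1 and 1.41-fold for Mpped1. Membership of a group took up 36.8% of the variance of Wfs1, 24.9% of that of Mpped1, 13.8% of that of Fibcd1 and 7.73% of that of Pou3f1, with a median of 14.7% over all tested genes. The processing groups took up 43.3% for Mpped1, 24.0% for Pou3f1, 18.3% for Wfs1 and 3.17% for Fibcd1, with a median of 18.6%.

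To ask whether the CA1 identity genes rise and fall together from mouse to mouse, their levels were correlated over the 19 libraries, with 100000 permutations and adjustment over the 6 pairs. Fibcd1 and Pou3f1 moved together (Pearson r = 0.80, permutation p = 6e-05, adjusted 0.00036; Spearman rho = 0.88, permutation p = 1e-05, adjusted 6e-05), where 1e-05 is the smallest p the permutations can give. Fibcd1 and Mpped1 had r = 0.67 (permutation p = 0.00133, adjusted 0.00399) and rho = 0.75 (permutation p = 0.00047, adjusted 0.00122). Pou3f1 and Mpped1 had r = 0.64 (permutation p = 0.00278, adjusted 0.00556) and rho = 0.73 (permutation p = 0.00061, adjusted 0.00122). Without the 2 libraries farthest from the median of the first gene the 3 values of r were 0.76, 0.71 and 0.64. With the group means removed they were 0.78, 0.64 and 0.63, and with the processing group means removed too, 0.82, 0.82 and 0.78. Taken 1 group at a time, a split chosen after seeing the data, the r of Fibcd1 and Pou3f1 was 0.86 in young, 0.72 in old control and 0.80 in old anti-miR-mix libraries. That of Fibcd1 and Mpped1 was 0.26, 0.93 and 0.79, and that of Pou3f1 and Mpped1 was 0.32, 0.65 and 0.73. In the young group the rho of these 2 pairs was -0.09 and 0.09. The SD of Mpped1 was also smallest there (0.07, against 0.12 in old control and 0.13 in old anti-miR-mix libraries). Whether r differed between groups was not tested. Adjusted over the 18 values of the 6 pairs and 3 groups, none passed in a two-sided exact permutation test (lowest adjusted p = 0.120 for r and 0.0607 for rho).

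For Wfs1 none of the 3 relations passed. Its r was -0.0003 with Fibcd1, 0.15 with Pou3f1 and 0.13 with Mpped1, and the permutation p-values were 0.999, 0.535 and 0.591 (adjusted 0.999, 0.709 and 0.709). The corresponding rho was -0.03, 0.20 and 0.18 (permutation p = 0.894, 0.408 and 0.453, adjusted 0.894, 0.544 and 0.544). With Mpped1 r was 0.48 without the 2 libraries farthest from the Wfs1 median (permutation p = 0.0527, adjusted 0.0791), and with Pou3f1 rho was 0.42 with group means removed (permutation p = 0.0712, adjusted 0.107). Young replicate 6 ranked 19th of 19 for Fibcd1 and for Pou3f1 but 6th for Wfs1, and young replicate 2 ranked 2nd for Fibcd1 but 14th for Wfs1. Old anti-miR-mix replicates 2 and 4, by contrast, were low for all 4 members, at ranks 17 to 19. The 19 libraries differ in depth and may differ in tissue composition, so a correlation between genes over libraries is not a relation within cells.

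**Figure D4:**
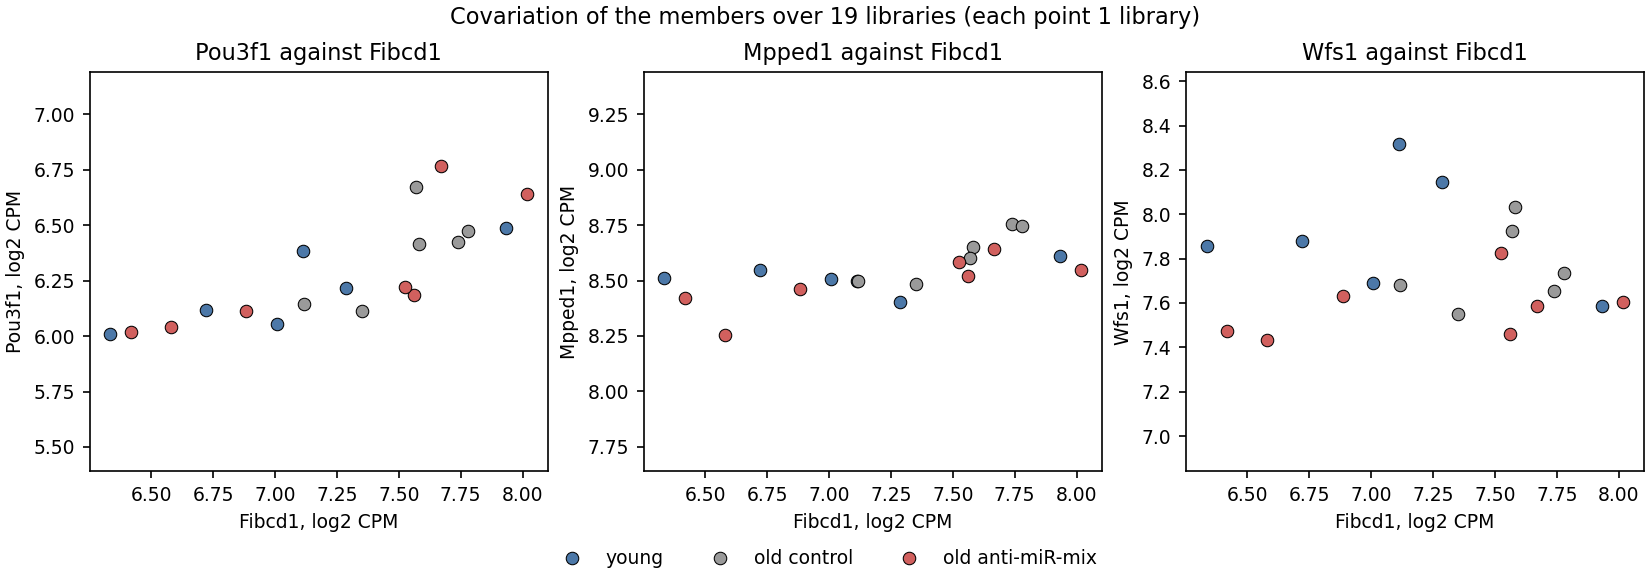
Level of Pou3f1, Mpped1 and Wfs1 (y axes, log2 CPM) against Fibcd1 (x axis, log2 CPM), with 1 point per library coloured by group. Over the 19 libraries Pou3f1 and Mpped1 rise with Fibcd1 (r = 0.80 and 0.67), and Wfs1 has r = -0.0003. Within the young group, where Mpped1 spans a narrow range, its r with Fibcd1 is 0.26.

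The genes whose level most resembled each member were then listed from the 12780 genes with a mean of at least 100 reads, as a description over the 19 libraries. Fibcd1 was most like Lmo1 (r = 0.96), Adra1d (r = 0.95) and Sowaha (r = 0.95). Pou3f1 was most like Nrgn (r = 0.96), which encodes the postsynaptic calmodulin-binding protein neurogranin, Igfbp4 (r = 0.94) and Kcnab2 (r = 0.94). Mpped1 was most like Nomo1 (r = 0.90), Sez6 (r = 0.88) and Entpd6 (r = 0.88). The closest genes to Wfs1 were Pacs1 (r = 0.80), Cacna2d3 (r = 0.79), a calcium channel subunit, and Camkk2 (r = 0.78), a calmodulin-dependent kinase kinase. No listed gene was shared between any of the members.

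The members were next set beside 5 other genes enriched in CA1, namely Spink8, Ndst4, Man1a, Ccn3 and Tyro3. In each of the 3 comparisons 0 of these 5 passed the threshold in edgeR, and DESeq2 called Ccn3 between old control and young mice. At an unadjusted p under 0.05 there were 2 of 5 between old control and young, 0 of 5 between the old groups and 1 of 5 between old anti-miR-mix and young mice, against 18.1%, 10.5% and 19.6% of all tested genes. Between old control and young mice Spink8 had a log2 fold change of 0.38, Ccn3 of 0.35, Ndst4 of 0.34 and Man1a of 0.26, and Tyro3 had -0.09. Median log2 fold changes over the 4 members were 0.14, -0.16 and 0.04 in the 3 comparisons, and 0.34, -0.12 and 0.13 over the 5 other CA1 genes, against 0.01, 0.00 and 0.00 over all tested genes.

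Spink8 followed Fibcd1 closely over the libraries (r = 0.94), as did Man1a (r = 0.86), Ndst4 (r = 0.71) and Ccn3 (r = 0.64), and it followed Pou3f1 (r = 0.86) and Mpped1 (r = 0.63). Wfs1 had r = 0.02 with Spink8, and of these 5 genes its highest r was with Tyro3 (0.60). Of the paralogs of the members, the POU factors Pou3f2, Pou3f3 and Pou3f4 and the phosphoesterase relative Mpped2, 0 of 4 passed the threshold in any comparison in edgeR, DESeq2 or limma, and Pou3f4, at an unadjusted p under 0.05 in 2 of them, had log2 fold changes of 0.18 and 0.16 against young mice. Pou3f2 ran against Pou3f1 over the libraries (r = -0.62), and equally against Fibcd1 (r = -0.62) and Mpped1 (r = -0.71), which are not its paralogs. With Wfs1 its r was -0.07.

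Dissected tissue contains other cells, and in bulk RNA fewer cells of a type and less RNA per cell cannot be told apart. Marker lists for neighbouring regions and cell types were therefore read in the same libraries, as the mean log2 CPM of each list. Fibcd1, Pou3f1 and Mpped1 were high in libraries in which 9 pan-pyramidal genes were high (r = 0.85, 0.85 and 0.55), and the same held for the mean of the 5 other CA1 genes (r = 0.88, 0.83 and 0.74). The pan-pyramidal list includes Nrgn, the gene most like Pou3f1. The 3 members were low where 6 neocortical genes were high (r = -0.84, -0.76 and -0.40 with the list mean), although Fezf2, 1 of these 6, ran the other way (r = 0.47, 0.61 and 0.73), and also where 4 thalamic (r = -0.72, -0.72 and -0.64) and 6 CA3 genes (r = -0.58, -0.57 and -0.69) were high. For Wfs1 the corresponding values were 0.35, 0.06, 0.19, -0.04 and 0.22. With the mean of 4 ventral CA1 markers Wfs1 had r = -0.49. With group means removed this was -0.58, its strongest relation to any of the 16 lists in that setting. Young replicates 3 and 4, the highest for Wfs1, had the lowest means of the ventral CA1 list (5.02 and 4.54). They also had the highest means of the dentate granule list within the young group (3.64 and 3.99). With that list Wfs1 had r = 0.29, and 0.42 with group means removed. Old anti-miR-mix replicate 5, at rank 18 for Wfs1, had a dentate mean of 4.02. These are descriptions over 19 libraries that differ in depth and in the levels of these lists. The part of tissue composition in the members' levels was not tested.

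**Figure D5:**
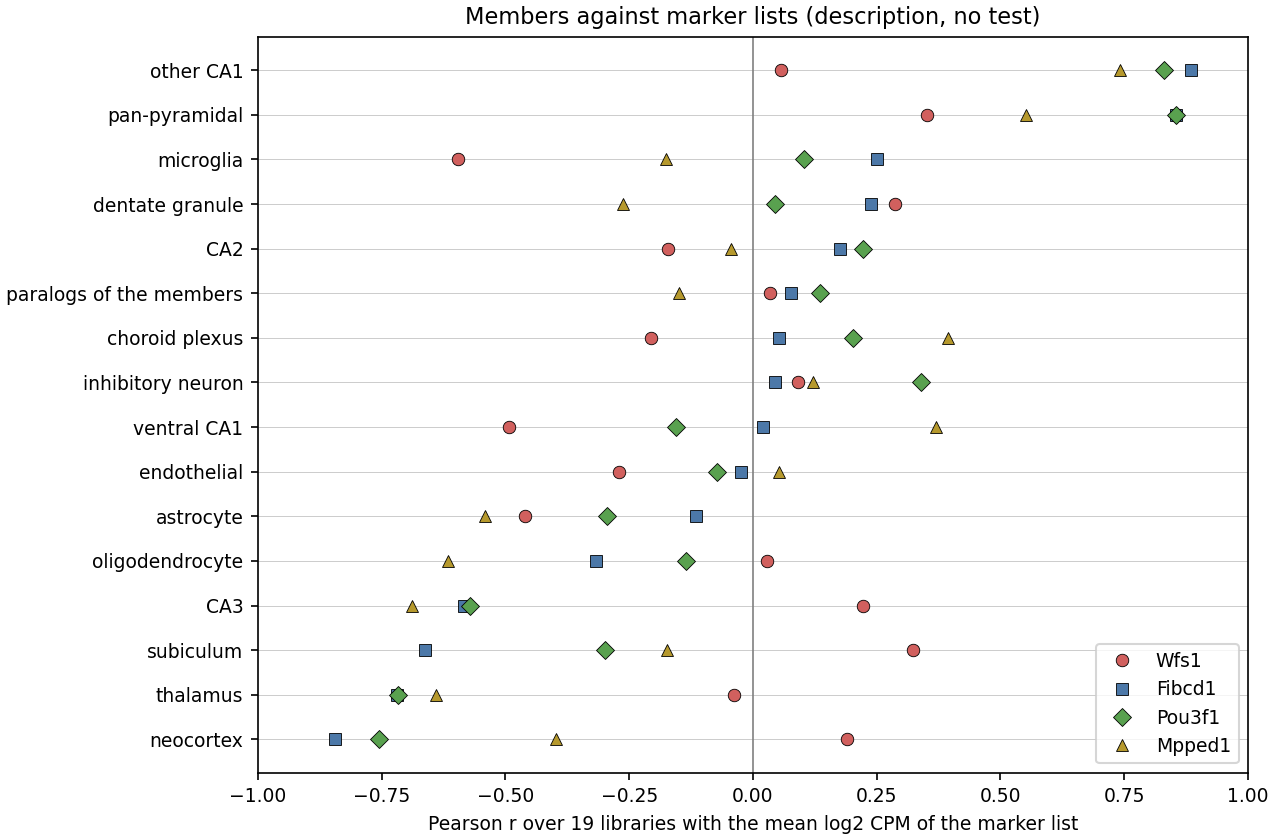
Pearson r over 19 libraries (x axis) between each member and the mean level of 16 marker lists (y axis, ordered by Fibcd1). Fibcd1, Pou3f1 and Mpped1 lie on the same side for the pan-pyramidal, other CA1, CA3, thalamic and neocortical lists, and Wfs1 stands apart with values of 0.35, 0.06, 0.22, -0.04 and 0.19.

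None of the neocortical, thalamic or CA3 markers was at 0 in any library. Summed levels, here and below, are the log2 of the summed CPM of a list. They were scaled to total assigned reads alone, with no prior count. The summed level of the 6 neocortical genes ranged over 8.17 to 8.64 log2 CPM in young, 8.11 to 8.39 in old control and 7.9998 to 8.5206 in old anti-miR-mix mice. In edgeR 0 of 6 passed the threshold in any comparison, with 3, 0 and 2 of 6 at an unadjusted p under 0.05 (18.1%, 10.5% and 19.6% of all genes), and DESeq2 called Tbr1 with age and Foxp2 between old anti-miR-mix and young mice. Summed CA3 markers ranged over 6.77 to 6.94, 6.68 to 6.83 and 6.76 to 6.96, and summed thalamic markers over 4.80 to 5.30, 4.76 to 5.41 and 4.90 to 5.44. Of the 6 CA3 genes, Coch was lower in old control than in young mice (log2 fold change -0.94, adjusted p = 0.0108 in edgeR), and DESeq2 also called Coch and Nectin3 between old anti-miR-mix and young mice. Of the 4 thalamic genes, Prkcd was higher in old anti-miR-mix than in young mice (0.50, adjusted p = 0.0113 in edgeR). The other 3 thalamic genes had negative log2 fold changes there and did not pass, and the median of the list was -0.15. Of 3 subicular genes Nts was lower in the same comparison (-0.35, adjusted p = 0.0298 in edgeR). The 6 CA2 markers, 7 dentate granule markers, 9 pan-pyramidal genes, 4 ventral CA1 markers, 6 inhibitory neuron markers, 4 endothelial markers and the 4 tested of 5 choroid plexus markers gave 0 calls in the 3 comparisons in edgeR. Of these 40 tested genes 6, 5 and 7 had an unadjusted p under 0.05, again against 18.1%, 10.5% and 19.6% of all genes, and DESeq2 called 3 and limma 1 between old control and young mice.

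Microglial markers moved in the same comparison as Wfs1, in the opposite direction. Between old anti-miR-mix and young mice 4 of 5 passed as higher, against 6.2% of all tested genes called in either direction. They were led by C1qa (log2 fold change 1.03, adjusted p = 6.1e-05 in edgeR) and Cx3cr1 (0.55, adjusted p = 4.3e-05 in edgeR). The summed level of the list ranged over 8.42 to 8.82 log2 CPM in old anti-miR-mix, 8.23 to 8.45 in old control and 7.94 to 8.27 in young mice. Cx3cr1 was also higher in old control than in young mice (0.35), and C1qa (0.63) and Csf1r (0.32) were higher in old anti-miR-mix than in old control mice. Wfs1 had r = -0.60 with the mean of this list over the 19 libraries and -0.19 once group means were removed. Of 5 astrocyte genes 2, Gfap (0.77) and Slc1a3 (0.20), passed as higher in old anti-miR-mix than in young mice. The others did not pass, and 1 of them had a negative value. In old control against young mice 2 of 4 oligodendrocyte genes, Mog (-0.55) and Mag (-0.43), passed as lower, against 2.67% of all tested genes called in either direction. Whether these markers have a part in the Wfs1 difference was not tested.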

How the data were processed

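CA1 RNA in 19 libraries was sequenced as single-end reads of 50 bases. Per the labels and the study's methods, the authors made polyadenylated RNA libraries, aligned reads to mm10 with STAR 2.5.2b and counted them per Ensembl gene with featureCounts (Subread 1.5.1). The deposited files hold raw counts per gene for each library. A second deposited table holds log2 values for 18761 genes, made by the authors, which equalled log2(CPM + 1) less the product of a slope for the gene and a whole number for the library, 1 to 4 (largest residual 3.4e-08). The strand setting is not given in the sources used here. All columns were assigned to a library (0 unassigned).

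The filter of the study's methods, a minimum of 5 reads in 50% of libraries, left 19286 genes, which were tested with edgeR 4.0.16 (R 4.3.3, TMM, all 3 groups in one quasi-likelihood fit, no covariate, Benjamini-Hochberg). DESeq2, the study's tool, was run as an alternative (1.42.0), as was limma 3.58.1 on the deposited log2 values. The scripts were tested on simulated data. GENCODE M21 (GRCm38) gave symbols and exon lengths for 48349 of the gene IDs and the 3′UTRs, and its release may differ from the authors' annotation. The members and 16 marker lists (87 genes with the members) were chosen with earlier results of these data known, and 2 list genes are not reported here. Named genes were the members, the other CA1 genes and paralogs, up to 2 higher and 2 lower genes past the threshold per other list, and the 3 genes most correlated with each member.

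Alternatives were DESeq2 size factors, no filter, processing group as a factor or a linear term, old control replicates 5 and 6 as 1 library, the replicate block, scaling to pan-pyramidal genes, each library left out, and a prior count of 0.5. The processing group factor together with the merged pair and the correlations within single groups were added after seeing the data. Likeness of library pairs was the squared difference in counts over its Poisson expectation, averaged over tested genes with at least 20 reads in the pair.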

Additional observations from a re-analysis of the deposited data

How the results depend on the processing

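The log2 fold changes of the 4 members kept their sign in all 29 alternatives, except in 5 cases whose main values were near 0. Pou3f1 in old anti-miR-mix against young mice was -0.0001 without old anti-miR-mix replicate 1 and up to 0.15 without other libraries. Mpped1 in the same comparison was 0.0066 with processing group as a factor, 0.0032 with old control replicates 5 and 6 also taken as 1 library (a setting chosen after seeing the data), 0.0009 without young replicate 2 and 0.015 without old anti-miR-mix replicate 4, and its lowest value with a library left out was -0.045. The r of Wfs1 and Fibcd1 turned from -0.0003 to 0.063 without the 2 outlying libraries, 0.0845 with group means removed and 0.0101 with old control replicates 5 and 6 averaged. Within single groups, a setting chosen after seeing the data, it was 0.27 in old control and 0.44 in old anti-miR-mix libraries, and that of Wfs1 and Mpped1 was -0.69 in young libraries. The r of Fibcd1 and Pou3f1 was 0.86 in the young, 0.72 in the old control and 0.80 in the old anti-miR-mix group, in the same order that of Fibcd1 and Mpped1 was 0.26, 0.93 and 0.79 and that of Pou3f1 and Mpped1 0.32, 0.65 and 0.73, none past the threshold with 6 or 7 libraries. Between old anti-miR-mix and young mice, the number of members past the threshold fell from 1 (Wfs1) to 0 with limma on the deposited values, with scaling to pan-pyramidal genes, with the replicate block, and with the processing group factor and merged pair together (Wfs1 adjusted p = 0.0524), and it was 0 to 1 over the 19 fits that each left out 1 library. The replicate numbers do not pair the samples: same-numbered libraries of different groups deviated together at r = -0.17 to 0.21, over 0.1 in 6 of 18 pairs, and 4 of 19 libraries correlated best with their own number. Under the replicate block Wfs1 was -0.36 (adjusted p = 0.068), and no other call on a member changed under the block. In the other 2 comparisons 0 members passed in any of the 29 alternatives, and the 3 correlations among Fibcd1, Pou3f1 and Mpped1 passed in each of the 4 settings that pooled the groups. Levels moved by less than 1 SD with a prior count of 0.5. Over all genes the counts of calls varied more widely. Between old anti-miR-mix and old control mice the 129 calls became 267 with DESeq2, 249 with the replicate block, 46 with pan-pyramidal scaling, 33 with the merged pair, 9 with processing group as a factor and 6 with both, and 24 to 247 with single libraries left out. Between old control and young mice the 514 calls became 914, 651, 45, 313, 371 and 225 under the same settings, 323 with no filter and 214 to 746 with single libraries left out. The 1196 calls between old anti-miR-mix and young mice became 431 with pan-pyramidal scaling. The share of higher calls rose with that scaling from 73.7% to 97.7% there and from 49.6% to 66.7% between old control and young mice.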
